A study of Homo sapiens with 6 samples.

Results

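The transcripts described here are all long intergenic noncoding RNAs with a LINC number and at least 60 reads summed over the 6 libraries of the count table: 22 of 2302 LINC symbols listed, in a table of 65746 symbols. They were chosen by that sum and not by the size of the difference between treatments, with earlier results of these data known. LINC00304 reached the sum only through its erianin reads. Long intergenic noncoding RNAs are transcripts from between protein-coding genes that lack a long open reading frame; the symbol LINC followed by a number is given to those without a function-based name. Many are spliced and polyadenylated like messenger RNAs. They are often nuclear and present in few copies, and often arise beside the promoter of a coding gene, so that their level can follow that of a neighbour or differ from it. SU-DHL-8 cells, a human line established from diffuse large B-cell lymphoma and wild type here, were given DMSO for 24 h in 3 libraries and 100 nM erianin for 24 h in 3 others. Erianin is a bibenzyl from Dendrobium orchids, and the study asked how lymphoma cells respond to it. The replicates are described as separate experiments, with no word on cultures or days, so the p-values reflect library-to-library spread that could be technical in part. In RNA from a whole culture, fewer cells making a transcript and less of it per cell cannot be told apart.

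B-cell markers were present: MS4A1, CD79A, CD79B, PAX5, CD22, BLNK and EBF1 had reads, at a summed 2646 to 3447 CPM with DMSO and 1990.2 to 2222 CPM with erianin. T and NK cell markers summed to 1.81 to 5.88 CPM with DMSO and 4.77 to 5.60 CPM with erianin. Reads were found for 4 of 8, with CD3G, CD2, LINC00861 and LINC02446 at 0. Myeloid markers summed to 4.30 to 7.27 CPM with DMSO and 9.30 to 10.5 CPM with erianin, and their part in the results was not tested. Reads were found for 3 of 6, with S100A8, S100A9 and LINC01094 at 0. A 0 of a LINC symbol was not read as absence, since the annotation used for counting is not given. Fibroblast markers reached at most 0.218 CPM (2 of 4). Library totals were 30956443 to 35588728 counts. CPM are library-scaled counts, corrected for composition by TMM, and on that scale the floor of 3 counts lay between 0.0819 and 0.0986 CPM.

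DMSO replicate 1 differed from its fellow DMSO libraries. Of the 22 transcripts, 10 were above and 9 below both other DMSO libraries in it; over all genes tested those shares were 48.3% and 42.4%. The median size of the log2 ratio of DMSO replicate 1 to the mean of DMSO replicates 2 and 3 was 0.52 for the 22 transcripts. Over all genes tested it was 0.41. Between DMSO replicates 2 and 3 the median size for the 22 transcripts was 0.24. Among the transcripts tested with all 6 libraries, LINC00539 (-0.84), LINC00173 (0.75), LINC01126 (-0.68) and LINC00205 (-0.67) showed the largest such ratios. The log2 fold changes of the transcripts described singly are given with and without DMSO replicate 1.

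With all 6 libraries, edgeR called no LINC transcript different between erianin and DMSO. The quasi-likelihood test of edgeR called 0 of 21 tested transcripts at an adjusted p under 0.05, where 24.2% of all 11550 genes tested were called (11.8% higher and 12.3% lower). At an unadjusted p under 0.05 edgeR had 3 of the 21 (LINC00165, LINC00539 and LINC01232, all higher with erianin), beside 38.4% of all genes. At an adjusted p under 0.05 DESeq2 called 2 (LINC00165 and LINC00539), beside 31.5% of all genes, and limma-voom called 1 (LINC00165), beside 23.9%. Log2 fold changes ran from -0.60 to 0.75, with 10 above and 11 below 0. Their median was -0.07, beside -0.0033 over all genes tested. The median size of the fold change was 0.28 on the log2 scale, beside 0.32 over all genes, and its median standard error (SE) was 0.24, beside 0.17. For 13 of the 21 the 95% interval of the difference lay inside 2-fold in either direction, as it did for 14 of 22 without DMSO replicate 1.

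Without DMSO replicate 1, 4 of 22 transcripts were called. LINC01232, LINC00165 and LINC00304 rose and LINC01126 fell; in the same fit 55.3% of 11773 genes tested were called (27.8% higher and 27.4% lower). LINC00304 reached the 60-read minimum only through its erianin reads, so its call was not independent of the choice of members. At an unadjusted p under 0.05 there were 6 of 22, beside 59.3% of all genes. The median log2 fold change of the 22 was then 0.07, beside 0.03 over all genes tested. The median SE of the LINC transcripts was 0.26, beside 0.09 over all genes. The transcripts had a median of 323 counts over 6 libraries, and 20 of the 21 tested with all 6 libraries had a mean below 10 CPM.

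Genes of like level gave a closer comparison. From 1 to 10 CPM, 0 of 15 LINC transcripts were called with all 6 libraries, against 22.4% of 2380 genes, and 3 of 15 without DMSO replicate 1, against 42.6%. Below 1 CPM, 0 of 5 were called with all 6 libraries, against 16.2% of 1290 genes, and 1 of 6 without DMSO replicate 1, against 25.6% of 1513; that 1 was LINC00304. The median log2 fold change from 1 to 10 CPM was -0.12 for the LINC transcripts and 0.15 for all genes with all 6 libraries, and -0.014 and 0.17 without DMSO replicate 1. At 10 CPM or above the only member was LINC00467, called in neither fit, where 26.0% of genes were called with all 6 libraries and 64.8% without DMSO replicate 1. The median SE from 1 to 10 CPM was 0.22 for both with all 6 libraries. These shares describe 22 transcripts only, and whether LINC transcripts differ from other genes in their response was not tested.

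**Figure D1:**
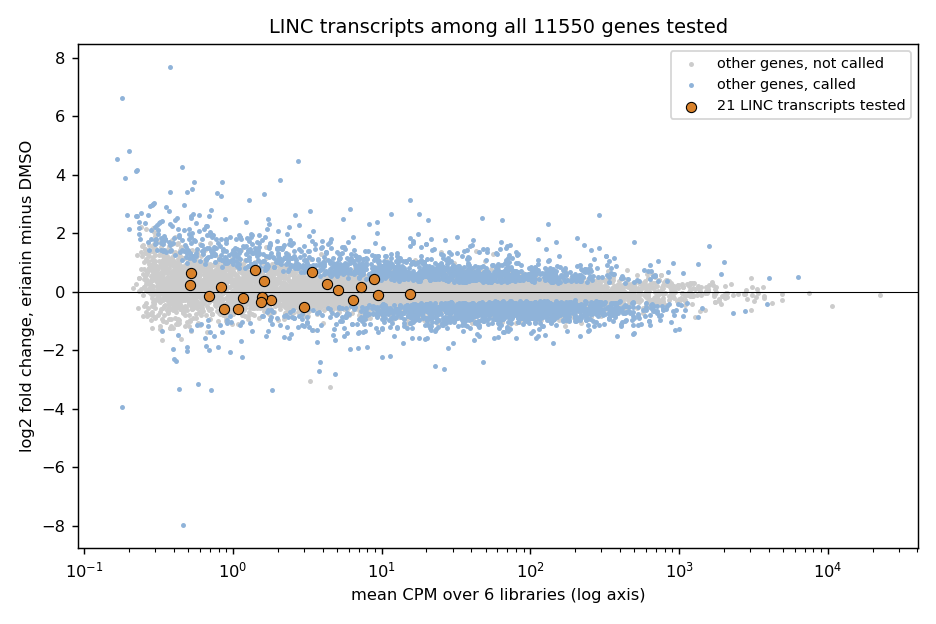
Log2 fold change of erianin minus DMSO (vertical axis) against mean CPM over 6 libraries (horizontal log axis) for all genes tested (called genes blue, others grey), with the 21 tested LINC transcripts as large orange points. The LINC transcripts sit in the lower range of levels and between -0.60 and 0.75, and none of them was called, beside 24.2% of all genes tested.

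**Figure D2:**
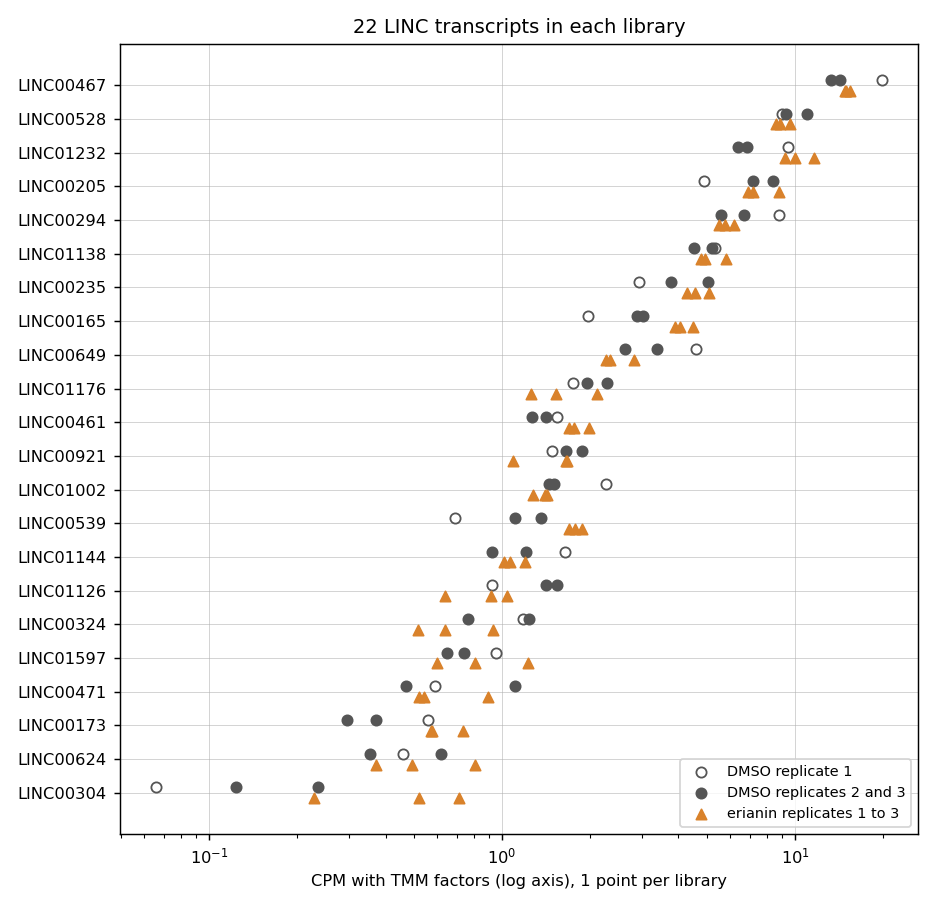
CPM of each of the 22 transcripts in each library (horizontal log axis, 1 point per library), ordered by mean level. DMSO replicate 1 (open circles) lies outside the range of the other DMSO libraries (filled circles) for 19 of the 22. Over all genes tested it was above both for 48.3% and below both for 42.4%. The erianin libraries (triangles) lie apart from all DMSO libraries for 5 of the 22, beside 46.8% of all genes tested.

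LINC01232 was the third most abundant of the 22 by CPM and rose without DMSO replicate 1. It lies on chromosome 13 (99486962 to 99499306, minus strand, GRCh38), within the span of TM9SF2, a gene of the other strand for an endosomal and Golgi membrane protein. Its level was 9.46, 6.84 and 6.41 CPM in DMSO replicates 1, 2 and 3 and 11.6, 10.0 and 9.23 CPM in erianin replicates 1, 2 and 3. DMSO replicate 1 was above the lowest erianin library, and the other DMSO libraries were below all erianin libraries. The log2 fold change was 0.44 ± 0.19 (SE; adjusted p = 0.12 by edgeR) with all 6 libraries and 0.65 ± 0.13 (adjusted p = 0.00018) without DMSO replicate 1. With all 6 libraries it was called with offsets for GC content and length (0.43, adjusted p = 0.035) and by limma on log2(TPM + 1) (0.61, adjusted p = 0.025), settings that called 36.4% and 14.5% of all genes. The listed TPM of DMSO replicate 1 added up to 39.2% of a full column, against 63.6% to 66.7% elsewhere, and its part in the TPM call was not tested. LINC01232 was also called by edgeR with the offsets joined to the replicate block (adjusted p = 0.041) and by limma on log2(TPM + 0.1) (adjusted p = 0.028). It was not called with the other scalings and filters, the replicate block alone, DESeq2 or limma-voom (adjusted p = 0.066 to 0.15). Nor was it called by edgeR without any 1 of the libraries other than DMSO replicate 1 (adjusted p = 0.17 to 0.34). TM9SF2 itself stood at 116 ± 4.47 CPM in DMSO libraries and 122 ± 6.46 CPM in erianin libraries (SD, n = 3). Its adjusted p by edgeR was 0.64 with all 6 libraries and 0.14 without DMSO replicate 1. The transcripts share 351 of the 6199 exonic bases of LINC01232, and without a stated strand setting reads of those bases cannot be assigned.

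LINC00165, a single-transcript gene of 824 exonic bases on chromosome 21 (44994362 to 44995185, minus strand), came nearest to a call with all 6 libraries. It had 1.97, 3.02 and 2.88 CPM in DMSO replicates 1, 2 and 3 and 4.48, 3.90 and 4.06 CPM in erianin replicates 1, 2 and 3. Every erianin library was above every DMSO library, with or without DMSO replicate 1, which was the lowest. The log2 fold change was 0.66 ± 0.20 (adjusted p = 0.052 by edgeR) and, without DMSO replicate 1, 0.50 ± 0.18 (adjusted p = 0.021). It was also called with upper-quartile scaling, total counts, the 1 CPM filter, DESeq2, limma-voom and the GC content and length offsets (adjusted p = 0.017 to 0.047), and it was not called under the 6 other settings that kept all libraries (adjusted p = 0.054 to 0.11) or without any 1 of the other libraries (adjusted p = 0.067 to 0.17). It shares no exonic base with another gene in GENCODE 29. The nearest tested coding gene, ITGB2, encodes the beta chain of the leukocyte integrins and lies 62373 bases away. ITGB2 stood at 179 ± 53.8 CPM in DMSO libraries and 217 ± 9.28 CPM in erianin libraries. Its adjusted p by edgeR was 0.40 with all 6 libraries and 0.44 without DMSO replicate 1.

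LINC00304 had the fewest reads of the 22, and passed the 60-read minimum through the erianin libraries. On chromosome 16 (89159146 to 89164245, plus strand), it gave 2, 4 and 8 reads in DMSO replicates 1, 2 and 3 and 26, 18 and 8 reads in erianin replicates 1, 2 and 3. Erianin replicate 3 had as many reads as DMSO replicate 3, so the groups overlapped. It did not pass edgeR's filter on low counts with all 6 libraries; without DMSO replicate 1 it rose by 1.43 ± 0.58 on the log2 scale (adjusted p = 0.039 by edgeR). Since it passed the minimum through the group where it was high, this difference was not independent of how it was chosen. It shares 1175 of its 3961 exonic bases with ACSF3, the mitochondrial malonyl-CoA synthetase gene, on the same strand. With all 6 libraries ACSF3 fell, from 71.7 ± 14.0 to 48.4 ± 2.17 CPM (-0.57 ± 0.16, adjusted p = 0.037 by edgeR). Without DMSO replicate 1, the fit that tested LINC00304, ACSF3 fell by -0.71 ± 0.07 on the log2 scale (adjusted p = 8.5e-09 by edgeR).

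LINC01126 was the single LINC transcript called lower, and only in the fit without DMSO replicate 1. It lies on chromosome 2 (43227210 to 43228855, plus strand) and starts 601 bases from the start of ZFP36L2, a gene of the other strand for a protein that promotes decay of AU-rich messenger RNAs. It had 0.920, 1.54 and 1.41 CPM in DMSO replicates 1, 2 and 3 and 1.04, 0.636 and 0.915 CPM in erianin replicates 1, 2 and 3. DMSO replicate 1 lay within the erianin range, and DMSO replicates 2 and 3 were above it. The log2 fold change was -0.58 ± 0.30 (adjusted p = 0.20 by edgeR) and, without DMSO replicate 1, -0.76 ± 0.30 (adjusted p = 0.034). ZFP36L2 stood at 58.2 ± 14.3 CPM in DMSO libraries and 59.4 ± 2.19 CPM in erianin libraries (adjusted p = 0.92 by edgeR). Without DMSO replicate 1 ZFP36L2 rose by 0.26 ± 0.07 on the log2 scale (adjusted p = 0.0036), opposite in sign to LINC01126.

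**Figure D3:**
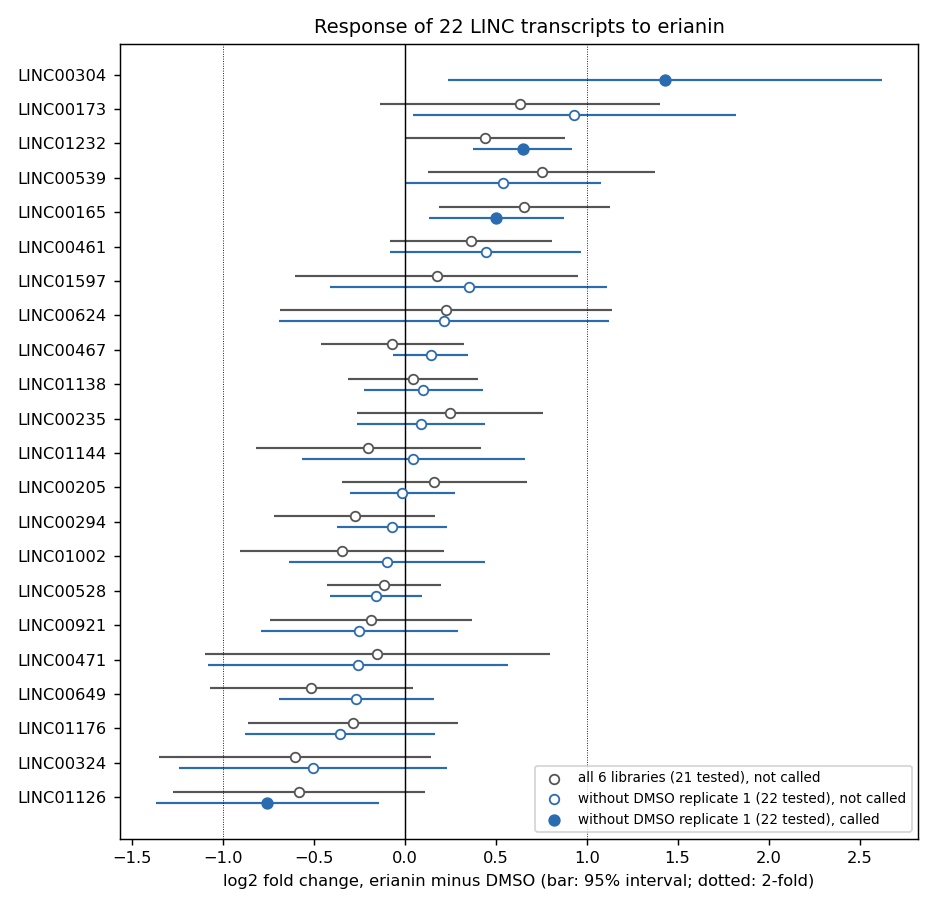
Log2 fold change of erianin minus DMSO for each of the 22 transcripts with its 95% interval, from all 6 libraries (grey) and without DMSO replicate 1 (blue); filled points were called at an adjusted p under 0.05. The 4 filled points are LINC00304, LINC01232, LINC00165 and LINC01126, all from the fit without DMSO replicate 1, which called 55.3% of all genes tested. The dotted lines mark 2-fold.

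The promoters of these 4 transcripts are shown because they are the LINC transcripts called in any direction without DMSO replicate 1. Each sequence runs 5′ to 3′ on the transcript's strand from 250 bases before to 50 after the RefSeq start (GRCh38.p14), and capitals mark matches to the motifs searched. The regions are chr13:99499257-99499556 (minus strand) for LINC01232, chr21:44995153-44995452 (minus strand) for LINC00165, chr16:89158970-89159269 (plus strand) for LINC00304 and chr2:43226961-43227260 (plus strand) for LINC01126.
LINC01232: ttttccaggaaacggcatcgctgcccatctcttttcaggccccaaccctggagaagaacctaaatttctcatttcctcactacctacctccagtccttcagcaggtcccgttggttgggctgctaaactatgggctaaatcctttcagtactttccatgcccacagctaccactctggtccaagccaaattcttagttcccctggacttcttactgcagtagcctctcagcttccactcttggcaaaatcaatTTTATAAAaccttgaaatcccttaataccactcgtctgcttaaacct
LINC00165: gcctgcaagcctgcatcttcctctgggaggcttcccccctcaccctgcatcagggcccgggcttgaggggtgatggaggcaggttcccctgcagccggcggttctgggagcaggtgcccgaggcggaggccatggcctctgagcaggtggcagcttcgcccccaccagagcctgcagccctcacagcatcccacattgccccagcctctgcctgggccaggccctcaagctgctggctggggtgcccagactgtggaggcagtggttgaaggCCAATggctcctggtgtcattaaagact
LINC00304: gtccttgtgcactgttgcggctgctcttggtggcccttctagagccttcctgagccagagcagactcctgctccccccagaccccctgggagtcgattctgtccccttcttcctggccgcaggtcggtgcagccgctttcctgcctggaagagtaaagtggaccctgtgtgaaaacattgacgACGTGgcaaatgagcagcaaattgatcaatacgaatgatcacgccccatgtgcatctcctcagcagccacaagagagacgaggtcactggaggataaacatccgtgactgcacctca
LINC01126: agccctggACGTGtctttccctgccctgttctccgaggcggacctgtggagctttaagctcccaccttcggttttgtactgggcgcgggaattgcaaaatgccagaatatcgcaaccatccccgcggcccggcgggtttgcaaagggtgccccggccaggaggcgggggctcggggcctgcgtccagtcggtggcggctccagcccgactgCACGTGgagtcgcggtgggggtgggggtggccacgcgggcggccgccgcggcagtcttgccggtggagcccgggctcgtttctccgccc
On both strands, 7 motifs were searched: TGANTCA (AP-1), TGACGTCA (CRE), CACGTG (E-box), GAANNTTC (a heat shock unit pair), ACGTG (the hypoxia response core, which overlaps the E-box), CCAAT and TATAAA. None of the 4 held the AP-1, CRE or heat shock letters, which were in 7.71%, 1.85% and 6.77% of 35116 RefSeq promoters. LINC01126 held an E-box (7.26% of all promoters), and it and LINC00304 the hypoxia core (21.4%). LINC00165 held CCAAT (34.6%) near its start and LINC01232 held TATAAA (11.5%) just after its start. GC content of the 4 windows ran from 46.7% for LINC01232 to 69.7% for LINC01126. No motif was common to the 3 transcripts that rose. RefSeq promoters were at hand for 16 of the 22 transcripts, of which 1 (LINC01002) held the AP-1 letters, 0 the CRE, 2 the E-box, 0 the heat shock unit, 4 the hypoxia core, 9 CCAAT and 3 TATAAA. A match is a run of letters and not a site shown to be used.

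LINC00539, LINC00173 and LINC00461 were higher in every erianin library than in any DMSO library and were not called by edgeR in either fit. LINC00539, on chromosome 13 (21303515 to 21348721, minus strand), had 0.690, 1.11 and 1.35 CPM in DMSO replicates 1, 2 and 3 and 1.69, 1.88 and 1.77 CPM in erianin replicates 1, 2 and 3. Its log2 fold change of 0.75 was the largest with all 6 libraries (95% interval 0.13 to 1.38, adjusted p = 0.080 by edgeR), and DMSO replicate 1 was its lowest library (0.54 and adjusted p = 0.081 without it). DESeq2 called LINC00539 with all 6 libraries (adjusted p = 0.0496). LINC00173, a transcript studied in the development of granulocytes, had 0.558, 0.370 and 0.294 CPM with DMSO and 0.737, 0.578 and 0.572 CPM with erianin in replicates 1, 2 and 3. DMSO replicate 1 came close to the lowest erianin library, and the log2 fold change was 0.63 ± 0.33 with it and 0.93 ± 0.43 without it (adjusted p = 0.20 and 0.070 by edgeR). On the log2(TPM + 1) scale of limma LINC00173 was called (adjusted p = 0.020), beside 14.5% of all genes. The listed TPM of DMSO replicate 1 added up to 39.2% of a full column, against 63.6% to 66.7% elsewhere. LINC00173 had 0.630 TPM in that library, and the part of the short column in the call was not tested. LINC00461, which contains the microRNA gene MIR9-2, stood at 1.41 ± 0.140 CPM in DMSO libraries and 1.81 ± 0.145 CPM in erianin libraries (SD, n = 3; log2 fold change 0.36 ± 0.19, adjusted p = 0.21 by edgeR; 0.45 ± 0.25 and 0.14 without DMSO replicate 1).

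Most LINC transcripts had overlapping groups. With all 6 libraries, 4 of the 22 transcripts had every erianin library above every DMSO library (LINC00165, LINC00539, LINC00173 and LINC00461) and 1 had every erianin library below (LINC01002). That is 5 of 22, where 46.8% of all genes tested had no overlap (23.6% higher and 23.1% lower). Without DMSO replicate 1 the count was 8 of 22, 6 higher and 2 lower, beside 68.9% over all genes (34.6% higher and 34.4% lower). LINC01002, near the end of the short arm of chromosome 19, stood at 1.74 ± 0.458 CPM in DMSO libraries and 1.36 ± 0.0809 CPM in erianin libraries (log2 fold change -0.35 ± 0.24, adjusted p = 0.33 by edgeR), and its log2 fold change was -0.099 ± 0.26 (adjusted p = 0.77) without DMSO replicate 1, its highest library. Stretches of LINC01002 of at least 200 bases are at least 97% identical to transcripts of 29 genes elsewhere, so its reads can belong to other copies.

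None of the other LINC transcripts among the most abundant was called in either fit. LINC00467, a transcript for which a small mitochondrial peptide has been described, led by CPM (chromosome 1, 211382803 to 211435333, plus strand). It had 19.8, 14.3 and 13.3 CPM in DMSO replicates 1, 2 and 3 and 15.4, 14.9 and 14.9 CPM in erianin replicates 1, 2 and 3. DMSO replicate 1 was the highest library, and the erianin libraries lay between it and the other DMSO libraries. Its log2 fold change was -0.07 (95% interval -0.46 to 0.33) and turned to 0.14 (-0.07 to 0.35) without DMSO replicate 1, to 0.021 with upper-quartile scaling and to 0.039 with total counts. LINC00528, on chromosome 22 and 2552 bases from the apoptosis gene BID, had 9.001, 11.0 and 9.32 CPM in DMSO replicates 1, 2 and 3 and 8.60, 8.87 and 9.60 CPM in erianin replicates 1, 2 and 3. The groups of LINC00528 overlapped, and its interval was the narrowest of the 21 with all 6 libraries (-0.43 to 0.20). Its log2 fold change was -0.12 ± 0.13 with DMSO replicate 1 and -0.16 ± 0.12 without it. LINC01138, reported to bind the arginine methyltransferase PRMT5, stood at 5.02 ± 0.428 CPM in DMSO libraries and 5.18 ± 0.562 CPM in erianin libraries (log2 fold change 0.045 ± 0.15 with all 6 libraries and 0.10 ± 0.16 without DMSO replicate 1); it is near-identical over at least 200 bases to transcripts of 5 genes elsewhere.

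LINC00205, LINC00294 and LINC00235 start within 1 kb of an opposite-strand gene start. LINC00205 starts 152 bases from POFUT2, a protein O-fucosyltransferase gene, and had 4.89, 7.18 and 8.38 CPM in DMSO replicates 1, 2 and 3 and 6.91, 7.19 and 8.83 CPM in erianin replicates 1, 2 and 3. DMSO replicate 1 was the low library, and the log2 fold change was 0.16 ± 0.22 with it and -0.014 ± 0.14 without it. LINC00235 starts 310 bases from CAPN15, a calpain gene, and had 2.92, 3.76 and 5.03 CPM with DMSO and 5.08, 4.28 and 4.57 CPM with erianin in replicates 1, 2 and 3. Its groups overlapped, DMSO replicate 1 was its lowest library, and the log2 fold change was 0.25 ± 0.22 with it and 0.091 ± 0.17 without it (adjusted p = 0.45 and 0.68 by edgeR). LINC00294 starts 311 bases from the pseudogene PIGCP1 and shares 263 exonic bases with CSTF3, a gene of the messenger RNA cleavage machinery. It had 8.80, 5.58 and 6.71 CPM with DMSO and 6.17, 5.75 and 5.49 CPM with erianin in replicates 1, 2 and 3. Here DMSO replicate 1 was the high library, and the log2 fold change was -0.28 ± 0.19 with it and -0.07 ± 0.15 without it.

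The remaining 8 transcripts were not called in either fit. LINC00649, LINC00324, LINC01176, LINC01144, LINC00921 and LINC00471 had log2 fold changes of -0.60 to -0.15 with all 6 libraries, and of -0.50 to 0.046 without DMSO replicate 1. LINC01597 and LINC00624 had 0.18 and 0.23 with all 6 libraries and 0.35 and 0.22 without DMSO replicate 1. Intervals were wide for the low ones: that of LINC00471, at 0.724 ± 0.339 CPM with DMSO and 0.653 ± 0.211 CPM with erianin, ran from -1.10 to 0.80. LINC00624, at 0.476 ± 0.132 and 0.557 ± 0.226 CPM, had an interval from -0.69 to 1.14, which takes in a 2-fold rise. LINC00649 had 4.60, 3.39 and 2.62 CPM with DMSO and 2.81, 2.34 and 2.26 CPM with erianin in replicates 1, 2 and 3. It starts 99 bases from ATP5PO, a gene of the mitochondrial ATP synthase, and holds stretches near-identical to transcripts of 4 genes elsewhere. Its highest value was DMSO replicate 1, and its log2 fold change was -0.51 ± 0.24 with that library and -0.27 ± 0.21 without it.

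Summed over the 22 transcripts, reads were compared between groups as 1 value per library. On unscaled library totals the sum was 79.6, 70.4 and 69.8 CPM in DMSO replicates 1, 2 and 3 and 84.6, 80.0 and 78.9 CPM in erianin replicates 1, 2 and 3. DMSO replicate 1 lay between the lower erianin libraries, and the other DMSO libraries lay below all erianin libraries. The means were 81.2 ± 3.01 with erianin and 73.3 ± 5.47 with DMSO (SD, n = 3 each; exact two-sided permutation p = 0.2, where 0.1 is the smallest that 3 against 3 allow). On TMM effective library sizes they were 78.2 ± 2.997 and 76.1 ± 4.23 (exact permutation p = 0.5). The 5 transcripts with the most reads held 61.4% of the summed counts.

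Per length, the order of levels differed from the order by reads. On the deposited TPM scale, over the 5 libraries other than DMSO replicate 1, LINC00165 (23.02 ± 4.78 TPM, SD, n = 5) and LINC00528 (22.6 ± 1.87) led. Their order differed by group. LINC00528 had 25.5 and 21.6 TPM and LINC00165 18.4 and 17.5 TPM in DMSO replicates 2 and 3, while LINC00528 had 20.7, 21.9 and 23.2 TPM and LINC00165 28.3, 25.2 and 25.7 TPM in erianin replicates 1, 2 and 3. LINC00528 was thus the higher in both DMSO libraries and LINC00165 in all 3 erianin libraries. LINC00467 followed at 13.7 ± 1.06, below the lowest value of either. LINC00235 (10.4 ± 1.29), LINC01176 (9.90 ± 2.13) and LINC00294 (9.25 ± 0.711) came next, with ranges that overlapped over the 5 libraries, although LINC00235 was above LINC00294 in every erianin library. LINC01002 was last at 0.310 ± 0.0121 TPM. The listed TPM of DMSO replicate 1 added up to 39.2% of a full TPM column, against 63.6% to 66.7% elsewhere, and that library was left out of this order.

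The 22 transcripts came from 13 chromosomes, with 4 on chromosome 1, 3 each on chromosomes 16 and 21, and 2 each on chromosomes 2 and 13. GENCODE 29 types 15 as lincRNA, 4 as processed transcript, 2 as antisense and 1 as a bidirectional promoter transcript. Exonic lengths ran from 818 to 14336 bases (median 2887) and GC content from 39.7% to 61.7%. Exonic bases were shared with another gene by 11 of the 22, and with a protein-coding gene by 8. A start within 1 kb of an opposite-strand start was found for 8. The log2 ratio of DMSO replicate 1 to the other DMSO libraries had a Spearman correlation of -0.37 with GC content and 0.33 with exonic length across the 22 transcripts, which share the same 3 libraries; the part of either in the results was not tested beyond the fit with offsets for both.

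Each LINC transcript was set beside its nearest tested protein-coding gene. With all 6 libraries, 7 of 21 pairs had log2 fold changes of the same sign, and Pearson's r across these pairs, which share the 6 libraries, was -0.0035. Without DMSO replicate 1 it was 9 of 22 pairs, with an r of -0.34. Only this fit held the pair of LINC00304 and ACSF3, with log2 fold changes of 1.43 and -0.71. LINC00304 passed the read minimum through its erianin reads, so its high value was not independent of how it was chosen. The r without that pair was not computed, so the change in r between the fits was not read as a relation. Of the 22 neighbours, 1 was called higher and 4 lower with all 6 libraries (24.2% of all genes were called), and 7 higher and 4 lower without DMSO replicate 1 (55.3%). LINC00324, on chromosome 17, and CTC1, a gene of the telomere-capping CST complex 778 bases away on the same strand, had negative log2 fold changes. CTC1 fell from 76.1 ± 3.06 to 43.2 ± 1.12 CPM (-0.82 ± 0.09, adjusted p = 0.0027 by edgeR), while LINC00324 stood at 1.06 ± 0.257 CPM in DMSO libraries and 0.693 ± 0.213 CPM in erianin libraries (-0.60 ± 0.32, adjusted p = 0.21; -0.50 ± 0.36 without DMSO replicate 1). MEF2C, a transcription factor gene of B cells 26076 bases from LINC00461, fell from 79.3 ± 27.2 to 42.5 ± 3.87 CPM (-0.90 ± 0.23, adjusted p = 0.029 by edgeR; -0.57 without DMSO replicate 1), while LINC00461 had a positive log2 fold change. Besides ACSF3, the other neighbours called were HM13, 1225931 bases from LINC01597 (-0.31, adjusted p = 0.044 by edgeR), and NBPF14, 11781 bases from LINC01138 (0.39, adjusted p = 0.048). The pairs named in this paragraph were chosen after their values were seen.

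**Figure D4:**
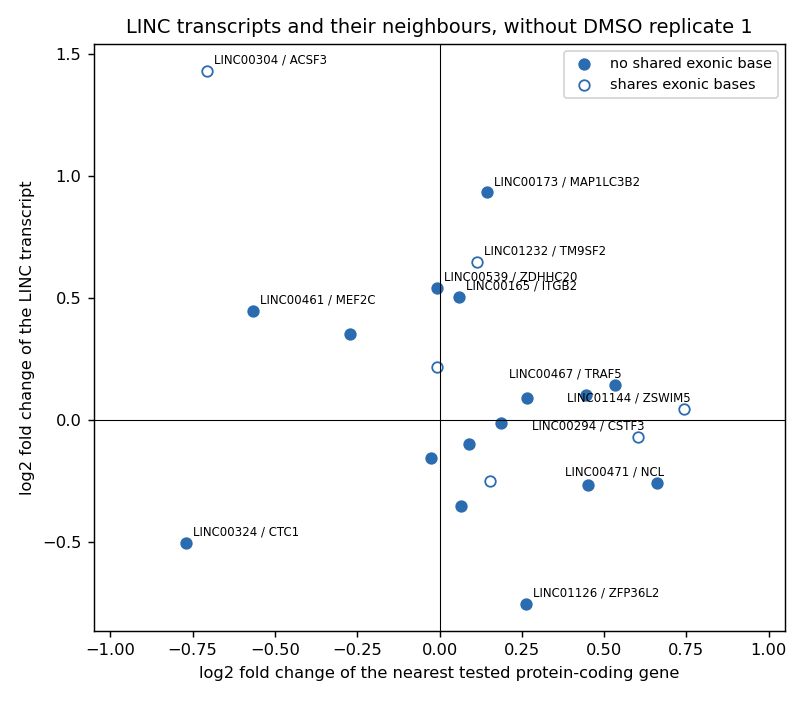
Log2 fold change of each of the 22 LINC transcripts (vertical axis) against that of its nearest tested protein-coding gene (horizontal axis), without DMSO replicate 1; open points share exonic bases with that neighbour. In 9 of the 22 pairs both changes had the same sign, and LINC00304 with ACSF3 and LINC00461 with MEF2C lie in the upper left, where the LINC transcript is higher and the neighbour lower.

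Other noncoding classes of the same table had calls with all 6 libraries, where 24.2% of all genes tested were called. Of 55 tested antisense RNAs (symbols ending in -AS, with or without a number), 5 were called higher and 3 lower, 14.5%, with a median log2 fold change of 0.15. Of 20 tested hosts of snoRNAs and microRNAs, 4 were called higher and 1 lower, 25.0%. Without DMSO replicate 1, 26.3% of 57 antisense RNAs and 66.7% of 21 hosts were called, beside 4 of 22 LINC transcripts and 55.3% of all genes tested. None of 595 listed divergent transcripts (-DT symbols) had enough reads to test. The annotation used for counting is not given in the sources used here, so this was not read as absence of those transcripts. Whether these classes differ from the LINC transcripts was not tested.

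The list of LINC symbols with reads was short. Reads were found for 55 of the 2302 listed symbols, between 38 and 45 in a library, and 2247 were at 0 in all 6 libraries. The highest number with a read was LINC01597, and all 1392 symbols with a higher number were at 0. LINC00926, LINC01857, LINC00963, LINC01128 and LINC00847 were among 14 of 24 LINC genes looked up by name that were listed at 0; LINC00467, LINC00294 and LINC01138 were members, LINC00511 and LINC00473 had 2 counts and 1 count, and 5 were not in the list. The annotation used for counting is not given in the sources used here, so a 0 was not read as absence of the transcript. Just inside the 60-read minimum were LINC00173 (106 counts), LINC00624 (105) and LINC00304 (66), and just outside were LINC01374 (48), LINC00654 (46) and LINC00310 (45).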

How the data were processed

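RNA from 3 DMSO and 3 erianin libraries of SU-DHL-8 cells was extracted with TRIzol and made into Illumina libraries, per the labels' protocols. Values deposited by the authors were gene counts, which are whole numbers, and TPM, which scale abundance by length. GRCh38 is the build in the submitters' processing notes, which also list StringTie 2.2.1, featureCounts 2.0.1, STAR 2.7.10 and fastp 0.23.2 without roles. Which annotation release, strand setting and read-pair handling were used is not given in the sources used here. Of 85 member counts under 100, 62.4% were even; if mates were counted singly, counting error is larger than the counts imply. The floors cover counting error only, whereas the 95% intervals come from the edgeR fit and hold the spread between libraries.

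After 61 repeated entries were left out, 65746 symbols remained. The main test was edgeR 4.0.16 (R 4.3.3) quasi-likelihood on counts over all genes kept by filterByExpr, with TMM scaling, treatment as the single term and Benjamini-Hochberg adjustment over all genes tested. SE was taken as |log2 fold change| divided by √F, and 95% intervals use the fit's degrees of freedom. Alternatives used DESeq2 1.42.0, limma 3.58.1 (log2 of TPM plus 1 or 0.1), mgcv 1.9.3 offsets, other scalings and filters, a replicate block and each library left out. The fit was also run on simulated counts, with a single dispersion for all genes and no library apart from its group. DMSO replicate 1 differed from its group here, so no conclusion about these data was drawn from that run. Coordinates, exons and neighbours came from GENCODE 29 (GRCh38), matched by Ensembl identifier for 16 members and by symbol for 6; near-identical stretches were found with BLAST 2.17.0. Promoters came from RefSeq (GRCh38.p14).

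Members and lists were chosen with earlier results of these data known. Of the B-cell markers listed for lookup, 1 is not reported here and is not in the sums. The rule for named transcripts took the 8 highest by CPM, members called without overlap, the 6 with the smallest p without DMSO replicate 1 among those not called with all 6 libraries, the 4 with the largest ratio of DMSO replicate 1 to the other DMSO libraries, the 3 on either side of the minimum and 24 names; LINC00461, LINC01002, LINC00649, LINC00324, LINC00471 and the others given outside it were added after their values were seen. Python 3.11.15 with pandas 2.3.3, scipy 1.17.1 and matplotlib 3.10.9 made tables and plots.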

Additional observations from a re-analysis of the deposited data

How the results depend on the processing

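The 0 calls higher of 21 tested LINC transcripts became 1 with upper-quartile scaling, with total counts alone, with the 1 CPM filter, with limma-voom and with the GC content and length offsets joined to the replicate block. They became 2 with DESeq2, with limma on log2(TPM + 1) and log2(TPM + 0.1), and with the offsets alone. Over all genes the calls were 1746 higher and 1897 lower (DESeq2), 1408 and 262 (log2(TPM + 1)), 1263 and 245 (log2(TPM + 0.1)) and 1741 and 2459 (offsets). They were 1329 higher and 1335 lower with the 1 CPM filter, 1401 and 1361 with limma-voom, and 1375 and 1936 with the offsets and block. Leaving out each library gave 0 to 3 LINC calls higher and 0 to 1 lower, the upper values without DMSO replicate 1. Over all genes the calls then ran from 407 higher and 338 lower without erianin replicate 2 to 3278 and 3227 without DMSO replicate 1. Same-numbered deviations from the group means correlated at 0.17, -0.14 and 0.23 over all genes tested, and differently numbered ones at -0.29 to 0.25. Deviations within a group are tied to each other, so these values cannot settle whether the numbers pair the libraries. The replicate block called 0 transcripts, and 1139 genes higher and 1157 lower over all genes. The median log2 fold change of -0.07 was 0.021 with upper-quartile scaling, 0.039 with total counts, -0.013 with no filter, 0.15 and 0.23 on the 2 TPM scales, -0.12 with the offsets (-0.12 with the block too), -0.12 for transcripts of at least 120 counts, and -0.091 to 0.069 with each library left out. The same median over all genes tested moved from -0.0033 to 0.11 with total counts and to 0.20 and 0.28 on the TPM scales, and the calls over all genes from 1368 higher and 1423 lower to 1763 and 1093 with upper-quartile scaling and 1840 and 918 with total counts. The summed CPM on library totals was higher with erianin by 6.21 to 11.1 with each library left out.

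The sign turned for some transcripts, and none of the turned values was called. LINC00467 turned to 0.021 with upper-quartile scaling, 0.039 with total counts and 0.21 and 0.23 on the TPM scales. On log2(TPM + 1) and log2(TPM + 0.1), LINC00528 turned to 0.15 and 0.16, LINC00294 to 0.018 and 0.020, LINC00921 to 0.043 and 0.063, LINC01144 to 0.080 and 0.10 and LINC00471 to 0.10 and 0.17. With each library left out, values ran from -0.18 to 0.14 for LINC00467, from -0.014 to 0.34 for LINC00205 and from -0.38 to 0.046 for LINC01144, in each case turning sign without DMSO replicate 1. They ran from -0.035 to 0.11 for LINC01138 and from -0.43 to 0.29 for LINC00471, turning without DMSO replicate 2 and without erianin replicate 1. They ran from -0.13 to 0.45 for LINC00624, turning without erianin replicate 2, and from -0.14 to 0.40 for LINC01597, turning without erianin replicate 3. The cause was not tested. LINC transcripts below 1 CPM had a median SE of 0.33, beside 0.40 for all genes at that level.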
